A study of Mus musculus with 6 samples.

Results

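Common gamma chain cytokine receptor signalling was followed here through 10 listed genes, out of 55471 gene IDs in the tables: the receptor chains Il2ra, Il2rb, Il2rg, Il7r and Il21r, the kinase Jak3, the transcription factors Stat5a and Stat5b, and the feedback genes Cish and Socs3. The genes were chosen by name and matched to the tables by Ensembl ID, and all 10 passed the filter on low counts that left 12546 genes for testing. Bulk RNA sequencing covered 6 libraries of CD8+ OT-I cells, which carry a transgenic receptor for an ovalbumin peptide and, here, a Cas9 knock-in. The cells had been transduced with a lentivirus that encodes the surface marker CD90.1 and either a guide against Elovl1, the enzyme that elongates saturated very long-chain fatty acids (sgElovl1, 3 libraries), or a non-targeting guide (sgNT, 3 libraries). They were transferred into mice with KPC_OVA tumours, a pancreatic cancer line that expresses the ovalbumin peptide, placed in the pancreas. All recipients in both groups received anti-PD-1, and CD90.1+ cells were sorted from the primary tumour 7 days after transfer. Before transfer, the cells of both groups had been expanded in culture with IL-2, IL-7 and IL-15, which are all ligands of gamma chain receptors. The comparison asks how the RNA of this pathway differed in cells that received the Elovl1 guide. Cells were selected on CD90.1 and not as edited clones, so a sorted sgElovl1 population can hold cells with an unedited gene, and sgElovl1 replicates 1 and 2 were each pooled from 2 tumours. Animal ages are not given in the labels.

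The common gamma chain, encoded by Il2rg, is the shared signalling subunit of the receptors for IL-2, IL-4, IL-7, IL-9, IL-15 and IL-21. Each receptor adds its own chain or chains, and ligand binding brings together JAK1, held by the partner chain, and JAK3, held by the gamma chain. Below several of these receptors, among them those for IL-2, IL-7 and IL-15, the kinases phosphorylate mainly STAT5A and STAT5B. These enter the nucleus and switch on survival and growth genes and their own inhibitors, among them Cish. Below the IL-21 receptor the kinases act mainly on STAT3. In CD8+ T cells IL-2 drives effector expansion, whereas IL-7 and IL-15 maintain memory cells.

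Elovl1 itself measured 81.5, 76.6 and 95.4 CPM (counts scaled to a common library size, with TMM factors between libraries) in the sgElovl1 libraries, given here and below in the order of replicates 1 to 3, and 283, 280 and 255 CPM in sgNT. It was 0.31-fold of control (log2 fold change −1.69, SE 0.12, adjusted p = 8.71e-05), which matches the labels. Depth was similar, with 21980273 to 26165380 expected counts per library. The 8 CD8 T cell markers summed to 9253 to 10548 CPM in sgElovl1 and 11451 to 12001 CPM in sgNT. Of these 8, Cd3e was called higher (log2 fold change 0.40, adjusted p = 0.0493) and Cd8a (−0.45, adjusted p = 0.0346) and Cd8b1 (−0.49, adjusted p = 0.0211) lower in sgElovl1, and all 3 were at 665 CPM or more in every library. Replicate 3 of each group stood apart in tumour epithelium markers, which summed to 314 CPM in sgElovl1 replicate 3 and 979 CPM in sgNT replicate 3 against 35.2 to 53.6 CPM in the other libraries. Macrophage and monocyte markers other than Ly6c2, which activated CD8 T cells also express, summed to 105 to 317 CPM in sgElovl1 and 46.9 to 70.9 CPM in sgNT. Lyz2 was 53.7, 77.3 and 159 CPM in sgElovl1 and 1.06, 8.62 and 14.0 CPM in sgNT (adjusted p = 0.0958), while Cd68, at 27.5 to 39.4 and 36.7 to 46.1 CPM, made up most of the sgNT sum. Of the 12 genes of that list, 2 were called, Adgre1 and C1qa, both higher in sgElovl1 and at most 6.40 CPM. B cell markers summed to 6.01 to 9.07 CPM in all libraries, with Pax5 at 0, and fibroblast markers to at most 0.473 CPM. Of 4 tested CD4 and regulatory T cell markers, Foxp3 was called lower (0.313-fold) and Ikzf2 higher (2.96-fold) in sgElovl1, with Cd4 at most 1.17 CPM. Klrb1c was called lower (0.193-fold) of 5 tested natural killer cell markers, with Ncr1 at most 0.17 CPM. Zbtb46 was called higher (2.39-fold) of 3 tested dendritic cell markers. Csf3r, the 1 neutrophil marker tested, was called higher, at most 1.10 CPM and at 0 in sgNT. Of all tested genes 13.8% were called. Results that move with replicate 3 of either group are given below with and without it, and the part of the other cell types in the results was not tested. In bulk RNA, fewer cells of a type and less RNA per cell cannot be told apart.

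The receptor subunits covered a wide range of levels. On the length-scaled TPM scale, Il2rg was the most abundant member in sgNT (2124 ± 137 TPM, SD, n = 3), followed by Il2rb, the signalling chain that IL-2 and IL-15 receptors share (965.5 ± 59.6 TPM), and Il21r, the private chain of the IL-21 receptor (261.0 ± 17.6 TPM). Cish came next at 53.7 ± 6.64 TPM, above Jak3 (43.3 ± 2.21 TPM) and Il2ra, the high-affinity alpha chain of the IL-2 receptor (37.2 ± 7.75 TPM), whose ranges overlapped. The lowest 4 members were Stat5b (14.1 ± 0.978 TPM), Stat5a (13.1 ± 1.15 TPM), Il7r (11.7 ± 4.69 TPM) and Socs3 (11.5 ± 0.965 TPM), and each overlapped its neighbour. In sgElovl1 the top 3 kept their order, at 2110 ± 448, 875.8 ± 26.3 and 288.1 ± 30.8 TPM (n = 3). Il2ra stood at 57.8 ± 7.97 TPM there, between Cish (64.0 ± 19.6 TPM) and Jak3 (56.1 ± 12.1 TPM), with all 3 overlapping. Il7r ranked 9 of 10 in sgNT and 7 of 10 in sgElovl1, where its 21.4 ± 0.582 TPM lay above every Stat5b value (18.8 ± 2.09 TPM). Stat5b and Stat5a (18.5 ± 4.26 TPM) overlapped, as did Stat5a and Socs3 (12.5 ± 2.33 TPM).

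None of the 10 members was called by edgeR's quasi-likelihood test at an adjusted p under 0.05, whereas 13.8% of all 12546 tested genes were (8.64% higher and 5.13% lower in sgElovl1). At an unadjusted p under 0.05 the test held 3 members, Il2ra, Stat5a and Stat5b, all higher in sgElovl1, against 32.2% of all genes in either direction and 17.4% higher. DESeq2 called 3 members, Il2ra, Il7r and Stat5b, all higher, where it called 19.8% of all genes (11.1% higher). Limma-voom and limma on TPM called 0 members each, and 15.2% and 8.65% of all genes, and edgeR with RLE scaling called 0 and 14.1%. Of the 10 log2 fold changes 8 were above 0, compared with 49.6% of all tested genes, and the members' median was 0.26 against −0.00 over all genes. Socs3 lay so close to 0 that its sign turned under 4 of the 16 alternative settings, and the sign of Il2rg turned under 3 and that of Cish under 1. The groups did not overlap for 4 members, Il2ra, Il7r and Stat5b above and Il2rb below, a share of 40.0% beside 37.1% of all tested genes (19.4% above and 17.7% below).

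**Figure D1:**
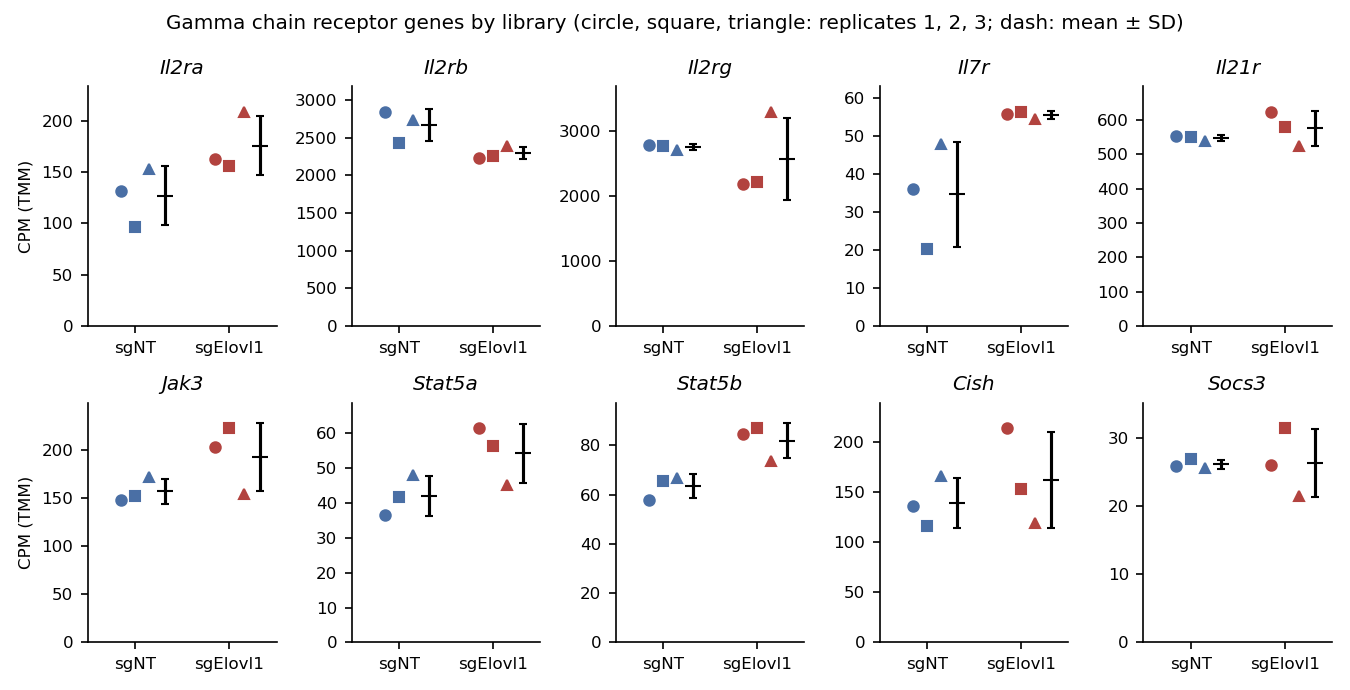
TMM-scaled CPM of each member (y axis, from 0) in the 3 sgNT and 3 sgElovl1 libraries, with the replicate given by the symbol and mean ± SD as a dash with bars. The groups separate for Il2ra, Il2rb, Il7r and Stat5b, and the sgElovl1 triangle (replicate 3) stands apart from the other sgElovl1 libraries for Il2rg, at 3293 CPM.

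Il2ra (ENSMUSG00000026770; chromosome 2, 11642807 to 11693193, plus strand; GRCm38, GENCODE M21) encodes CD25, which raises the affinity of the IL-2 receptor. It measured 163, 156 and 209 CPM in sgElovl1 and 132, 96.6 and 153 CPM in sgNT. Every sgElovl1 library was above every sgNT library, although 156 and 153 CPM nearly touched. The fold was 1.38 (log2 fold change 0.47, SE 0.17, adjusted p = 0.0959, 95% interval 1.06 to 1.81-fold). The replicate number was also fitted as a block, a pairing that the labels do not state and that was chosen from these same data. With it the log2 fold change was 0.48 and the adjusted p was 0.0342. Il2ra was the only member called under the block (13.4% of all genes were called, 8.92% higher). Leaving out sgNT replicate 3 gave 0.63 (adjusted p = 0.0478), leaving out the others one at a time gave 0.32 to 0.55, none called, and the gene length offset, which removes each library's trend with gene length, gave 0.26 (adjusted p = 0.425).

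Il2rb (ENSMUSG00000068227; chromosome 15, 78479256 to 78495271, minus strand) carries JAK1 and the STAT5 docking sites of the IL-2 and IL-15 receptors. Its CPM were 2238, 2260 and 2385 in sgElovl1 and 2847, 2435 and 2731 in sgNT. All sgElovl1 libraries lay below all sgNT libraries, and the nearest values were 2385 and 2435 CPM. The fold was 0.859 (log2 fold change −0.22, SE 0.13, adjusted p = 0.264), with a 95% interval of 0.706 to 1.05-fold. No alternative setting called Il2rb, and its log2 fold change stayed between −0.35 and −0.14.

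Il2rg (ENSMUSG00000031304; chromosome X, 101264378 to 101268255, minus strand), the common gamma chain, measured 2183, 2210 and 3293 CPM in sgElovl1 and 2785, 2761 and 2700 CPM in sgNT. The sgNT libraries were nearly equal, and the sgElovl1 libraries fell on both sides of them. The log2 fold change was −0.10 (SE 0.17, adjusted p = 0.72). It rested on sgElovl1 replicate 3. That library had the highest macrophage sum (317 CPM) and 314 CPM of epithelial markers, and was the only sgElovl1 library from 1 tumour. Whether any of these bears on Il2rg was not tested. Without that library the log2 fold change was −0.32 and called lower (adjusted p = 0.0394). Without replicate 3 of both groups it was −0.34 (adjusted p = 0.0102). With the gene length offset the sign turned, at 0.04 (adjusted p = 0.899). The gene lies within Gm20489, a protein-coding locus annotated on the same strand (101261405 to 101269023), and its expected counts were up to 0.46 away from a whole number, so some reads were divided between loci.

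Il7r (ENSMUSG00000003882; chromosome 15, 9505788 to 9530176, minus strand) encodes CD127, the IL-7 receptor chain that naive and memory T cells carry and that effector cells lose. It had the largest log2 fold change of the 10. Its CPM were 55.8, 56.5 and 54.6 in sgElovl1 and 36.1, 20.3 and 47.9 in sgNT. The sgElovl1 libraries were nearly equal (SD 0.943 CPM), while the sgNT libraries spread with an SD of 13.8 CPM and all lay below. The fold was 1.60 (log2 fold change 0.68, SE 0.28, adjusted p = 0.156, 95% interval 0.999 to 2.57-fold). Leaving out sgNT replicate 3, the library with 979 CPM of epithelial markers, gave 0.99 (adjusted p = 0.0271), and leaving out sgNT replicate 2 gave 0.42 (adjusted p = 0.131). Whether the epithelial markers bear on Il7r was not tested.

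Il21r (ENSMUSG00000030745; chromosome 7, 125603429 to 125633570, plus strand) measured 624, 578 and 524 CPM in sgElovl1 and 554, 551 and 539 CPM in sgNT. The sgNT values fell inside the sgElovl1 range. The log2 fold change was 0.07 (SE 0.12, adjusted p = 0.716), and the 95% interval ran from 0.881 to 1.25-fold. No alternative called Il21r, which stayed between 0.01 and 0.14 on the log2 scale.

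Jak3 (ENSMUSG00000031805; chromosome 8, 71676296 to 71690575, plus strand) encodes the kinase that binds the gamma chain. It measured 203, 223 and 154 CPM in sgElovl1 and 148, 152 and 172 CPM in sgNT. Replicates 1 and 2 of sgElovl1 were above all sgNT libraries, and sgElovl1 replicate 3 fell within the sgNT range. The log2 fold change was 0.30 (SE 0.14, adjusted p = 0.171). Without sgElovl1 replicate 3 it was 0.44 and called (adjusted p = 0.0202), and with the gene length offset it was 0.02 (adjusted p = 0.935). The gene takes in Insl3, a gene on the same strand (71689214 to 71690575), and its expected counts were up to 0.48 from whole numbers.

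Stat5a and Stat5b are neighbouring copies on chromosome 11, transcribed away from each other with 8627 bases between them: Stat5a (ENSMUSG00000004043) at 100859351 to 100885169 on the plus strand and Stat5b (ENSMUSG00000020919) at 100780731 to 100850724 on the minus strand. Their annotated transcripts share 11.5% of the 31-base stretches of Stat5a and 15.1% of those of Stat5b, and 2.21% and 3.16% at 150 bases. Expected counts of both were up to 0.44 from whole numbers, so the division of reads between the copies carries some uncertainty.

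Stat5b had the smallest p of the 10 members. Its CPM were 84.8, 87.0 and 73.7 in sgElovl1 and 57.9, 65.4 and 66.9 in sgNT. Every sgElovl1 library was above every sgNT library. The fold was 1.29 (log2 fold change 0.37, SE 0.12, edgeR's adjusted p = 0.0586, 95% interval 1.08 to 1.54-fold), and 15.7% of all tested genes had an unadjusted p as small. Stat5b has the longest deposited gene length of the 10, at 4913 bases in sgElovl1 replicate 1. Its log2 fold change with the gene length offset was 0.04 (adjusted p = 0.843). Without sgElovl1 replicate 3 it was 0.44 (adjusted p = 0.0225).

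Stat5a measured 61.4, 56.2 and 45.0 CPM in sgElovl1 and 36.4, 41.6 and 47.9 CPM in sgNT. The groups overlapped through sgElovl1 replicate 3, which lay below sgNT replicate 3. The log2 fold change was 0.37 (SE 0.14, adjusted p = 0.105). Without sgElovl1 replicate 3 it was 0.49 (adjusted p = 0.0321), and with the length offset 0.19 (adjusted p = 0.411). The 3′ end of the gene overlaps that of Stat3, on the opposite strand (100885098 to 100939540).

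Cish (ENSMUSG00000032578; chromosome 9, 107296026 to 107302784, plus strand) encodes CIS, an inhibitor induced by STAT5 that acts back on the IL-2 receptor. It measured 214, 153 and 119 CPM in sgElovl1 and 136, 116 and 166 CPM in sgNT. The widest spread among the 3 sgElovl1 libraries relative to the mean was in this gene, and the ranges overlapped. The log2 fold change was 0.22 (SE 0.22, adjusted p = 0.534, 95% interval 0.821 to 1.65-fold). It was −0.04 without sgElovl1 replicate 1 (adjusted p = 0.939) and 0.54 without replicate 3 of both groups (adjusted p = 0.0439). Antisense loci Gm17040 and Gm17041 overlap the gene, and the strand setting of the counting is not given in the sources used here.

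Socs3 (ENSMUSG00000053113; chromosome 11, 117966079 to 117970047, minus strand), an inhibitor that STAT3 and STAT5 induce and that binds gp130-type receptors, measured 26.0, 31.4 and 21.5 CPM in sgElovl1 and 25.8, 26.9 and 25.6 CPM in sgNT. All sgNT libraries lay inside the sgElovl1 range. The log2 fold change was 0.01 (SE 0.15, adjusted p = 0.97), with a 95% interval of 0.804 to 1.26-fold.

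The STAT motif TTCNNNGAA, which reads the same on both strands, was searched for in RefSeq promoters (GRCm38.p6; 250 bases before to 50 bases after the annotated start), because Cish and Socs3 are targets of STAT factors. Of the 10 members 9 had a window in the table, in 11 windows. The motif occurred in 3 members, and in 8.3% of all 32851 windows. Cish held 2 copies, as 0.457% of all windows did, beginning at bases 1 and 12, counted from 1 at the start. In Socs3 the motif began 154 bases before the start and in Il7r 142 bases before. These starts are those of RefSeq, and the Socs3 and Il7r stretches lie within the GENCODE gene spans given above. The stretches below are shown with the motif in capitals. There, outside GENCODE exons means only that the stretch is not wholly inside an exon of the gene.
Cish, chr9:107296654-107296683, plus strand, inside an exon of a longer GENCODE transcript: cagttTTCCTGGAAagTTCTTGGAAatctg
Socs3, chr11:117969501-117969530, minus strand, outside GENCODE exons: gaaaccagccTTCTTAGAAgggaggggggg
Il7r, chr15:9529999-9530028, minus strand, outside GENCODE exons: gttcaggagcTTCAGGGAAtaccaagatgc
The 3 genes with the motif differed in their values, with log2 fold changes of 0.22 (Cish), 0.01 (Socs3) and 0.68 (Il7r), none called. Binding was not measured.

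**Figure D2:**
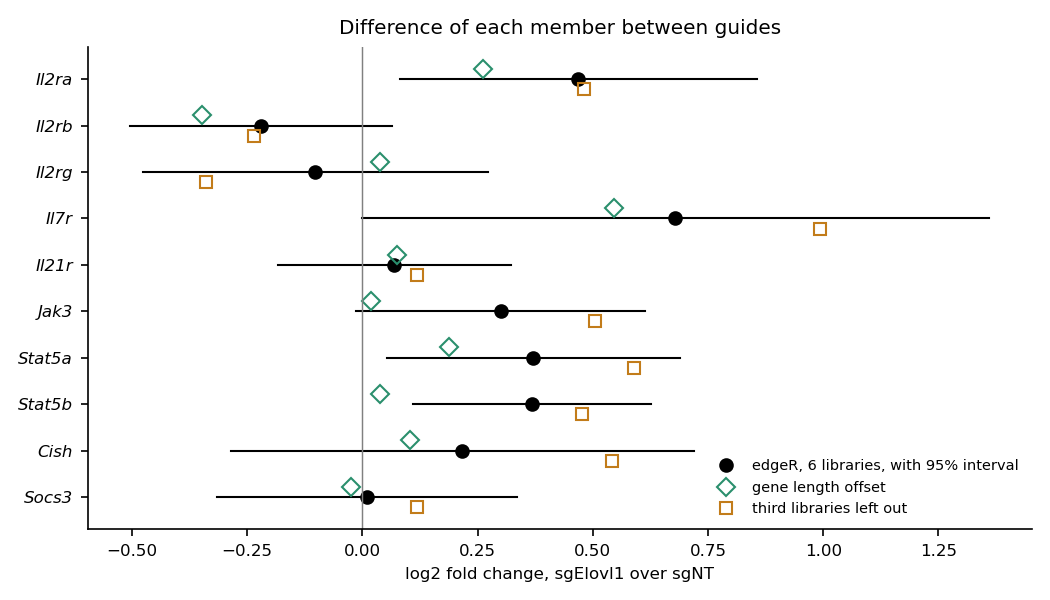
Log2 fold change of sgElovl1 over sgNT (x axis) for each member, from edgeR on 6 libraries with its 95% interval (filled points), with the gene length offset (diamonds) and without replicate 3 of both groups (squares). The offset moves Stat5b from 0.37 to 0.04 and Jak3 from 0.30 to 0.02, and leaving out replicate 3 of both groups moves Cish from 0.22 to 0.54.

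Log2 fold changes rose with gene length over the whole table (Spearman's rho 0.30 across genes, which are not independent), with a median of −0.12 in genes of up to 1411 bases and 0.28 in genes of 3084 bases or more. Gene lengths of the members ran from 1556 bases (Il2rg) to 4913 bases (Stat5b). With the length offset the members' median log2 fold change was 0.06 and 0 of 10 were called, where 9.20% of all genes were, and 9.07% with the block as well. The members' share called followed the libraries used. Without replicate 3 of both groups 6 of 10 were called (Il2ra, Jak3, Stat5a, Stat5b and Cish higher, Il2rg lower), and 31.5% of all genes (15.4% higher and 16.1% lower). Without sgElovl1 replicate 3 alone 4 were called (Jak3, Stat5a and Stat5b higher, Il2rg lower) and 21.1% of all genes (11.0% higher and 10.1% lower). In both of these fits every sgElovl1 library left was a pool of 2 tumours, and no sgNT library was a pool. Pooling and group cannot be told apart there. Without sgNT replicate 3 alone 2 were called (Il2ra and Il7r, both higher), and 10.4% of all genes (7.08% higher). No member was called by edgeR when replicate 1 or 2 of sgElovl1 was left out (3.58% and 2.47% of all genes were), nor without replicate 1 or 2 of sgNT (7.41% and 3.03%). Other choices of filter called Stat5b, with a minimum count of 50 (16.6% of all genes, 10.9% higher), and Il2ra and Stat5b, with no filter (8.72% of all genes, 5.81% higher).

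**Figure D3:**
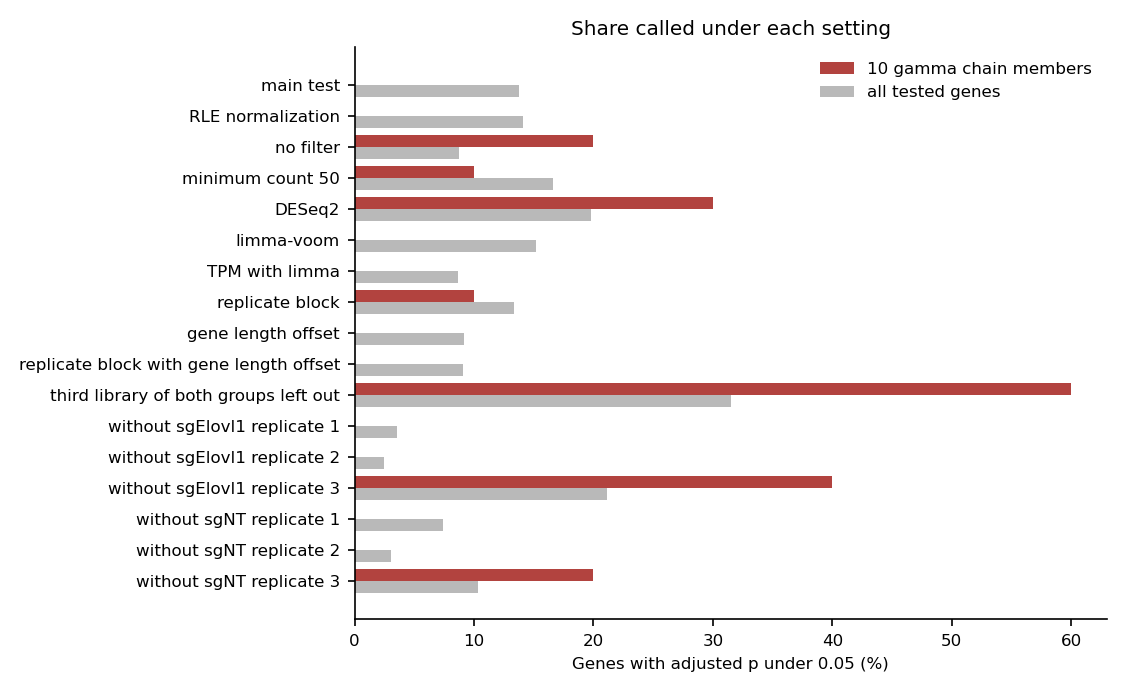
Share of the 10 members (red) and of all tested genes (grey) with an adjusted p under 0.05, in percent (x axis, from 0), for the main test and 16 other settings. The largest pair is that without replicate 3 of both groups, at 6 of 10 members and 31.5% of all genes.

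Ratios of members within a library do not depend on the scaling between libraries. They can still carry each library's trend with gene length, which was not removed here (Il2rg has 1556 bases and Il2ra 3458). The Il2rb to Il2ra ratio, in TPM, was 15.8, 17.2 and 13.0 in sgElovl1 and 24.9, 33.1 and 22.2 in sgNT. All sgElovl1 libraries were lower than all sgNT libraries. The Il2rg to Il2ra ratio was 33.5, 36.2 and 39.2 in sgElovl1 and 52.3, 78.9 and 47.2 in sgNT, again without overlap. The Il2rb to Il7r ratio was 40.0, 41.1 and 41.9 in sgElovl1 and 84.1, 138 and 57.6 in sgNT. Of 8 ratios examined, these 3 did not overlap between groups. They share Il2ra, Il2rb and Il7r, whose own levels did not overlap, and an exact permutation test on 3 against 3 libraries could not go below p = 0.10, so none was tested. The Stat5b to Stat5a ratio overlapped (1.04 ± 0.162 in sgElovl1, 1.07 ± 0.0323 in sgNT, n = 3), as did Cish to Socs3 (5.18 ± 1.61 and 4.71 ± 0.961) and Il2rg to Il2rb (2.41 ± 0.516 and 2.20 ± 0.155).

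**Figure D4:**
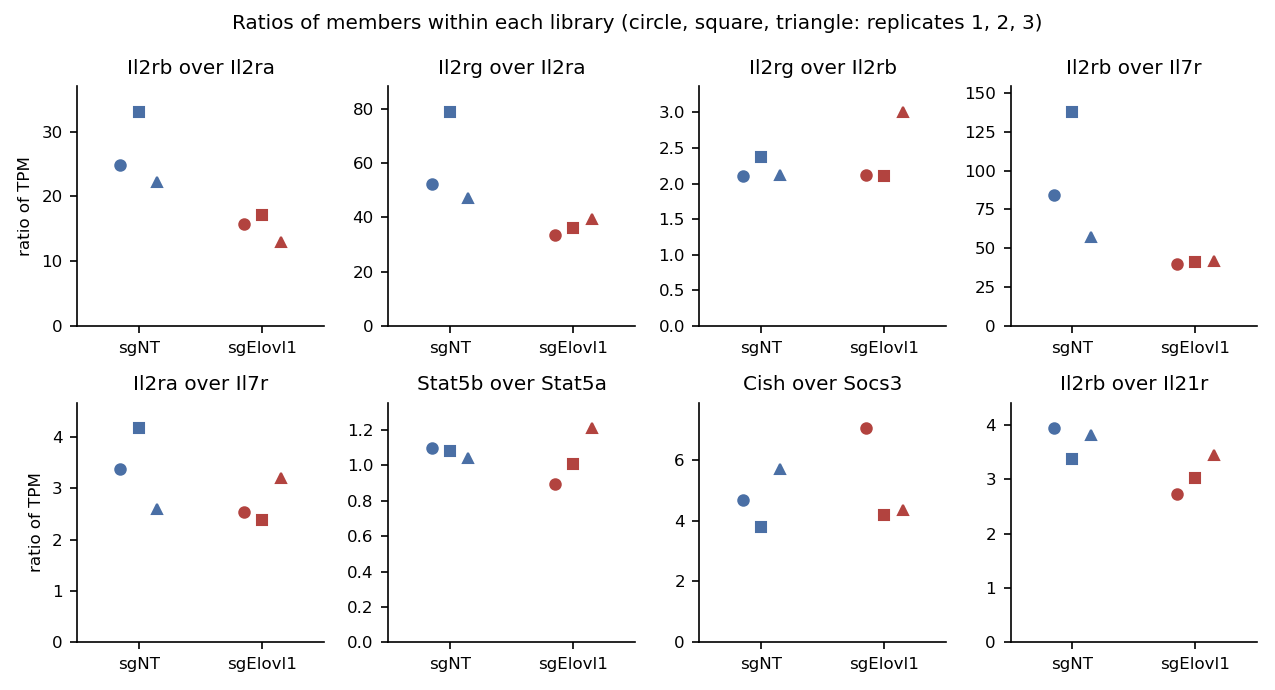
Ratio of the TPM of paired members in each library (y axis, from 0), with replicates 1, 2 and 3 as circle, square and triangle. Il2rb over Il2ra lies at 13.0 to 17.2 in sgElovl1 and 22.2 to 33.1 in sgNT, while Stat5b over Stat5a overlaps.

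The ligands were almost absent from the sorted cells. Il2 had 4 to 13 counts and Il7 2 to 10 counts per library, and Il4 and Il9 had 0 in all 6, which allows up to 0.110 to 0.137 CPM in a library (3 counts, for counting error only). The other 2 ligands, Il15 and Il21, passed the filter, were at most 0.980 CPM in any library, and had log2 fold changes of 0.47 (adjusted p = 0.736) and −0.51 (adjusted p = 0.557). Of 5 further receptor chains (Il4ra, Il9r, Il15ra, Il13ra1 and Crlf2) 4 were tested and 0 called by edgeR, with 1 at an unadjusted p under 0.05. The shares of all tested genes were 13.8% called and 32.2% at an unadjusted p under 0.05. Il4ra, the IL-4 receptor chain, was 85.9, 72.1 and 76.1 CPM in sgElovl1 and 52.6, 58.1 and 71.3 CPM in sgNT (log2 fold change 0.36, adjusted p = 0.093), the sgElovl1 libraries above. Il15ra, which presents IL-15 to the Il2rb and Il2rg chains, was 21.1, 20.9 and 26.3 CPM in sgElovl1 and 25.3, 20.7 and 25.9 CPM in sgNT, with overlapping groups (log2 fold change −0.07, adjusted p = 0.768).

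Of the remaining 8 kinases and STAT factors Jak2 alone was called, beside 13.8% of all tested genes. It lay at 60.2 to 68.0 CPM in sgElovl1 and 44.9 to 49.9 CPM in sgNT (log2 fold change 0.44, adjusted p = 0.0245). JAK2 serves other cytokine receptors than those of the gamma chain. The median of these 8 genes was 0.32, beside −0.00 over all genes. In the main test 5 of the 8 had an unadjusted p under 0.05, beside 32.2% of all tested genes. With the gene length offset 0 did, beside 3436 of all 12546 genes, and 0 were called, beside 9.20% of all genes.

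Of 19 listed SOCS family genes, phosphatases and other regulators, not all of them brakes, 4 were called higher and 1 lower, beside 8.64% and 5.13% of all tested genes. Cblb, a ubiquitin ligase that restrains T cell activation, rose from 116 to 124 CPM in sgNT to 164 to 193 CPM in sgElovl1 (log2 fold change 0.58, adjusted p = 0.00819). Its relative Cbl rose by 0.74 (adjusted p = 0.0207), the adaptor Sh2b1 by 0.45 (adjusted p = 0.0321) and Socs5 by 0.92 (adjusted p = 0.0394), the last at no more than 7.36 CPM. Ptpn11, which encodes the phosphatase SHP-2, lay at 51.4 to 70.0 CPM in sgNT and 34.3 to 37.3 CPM in sgElovl1 (log2 fold change −0.73, adjusted p = 0.00644). Ptpn11 was also called in each of the 6 fits that left out 1 library, but not by limma on TPM (adjusted p = 0.0648).

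In the MAPK and PI3K branch, through which the IL-2 receptor also signals, 5 of 25 tested genes were called higher and 1 lower, beside the same 8.64% and 5.13% of all genes. Rictor, the defining subunit of mTOR complex 2, was 89.0, 86.0 and 76.9 CPM in sgElovl1 and 44.3, 39.9 and 48.2 CPM in sgNT. The groups were far apart, with a log2 fold change of 0.93 (SE 0.12, adjusted p = 0.00161), and Rictor was called under all 16 other settings. Pik3r1 and Pik3cd, the regulatory and catalytic subunits of a PI3 kinase of lymphocytes, rose by 0.52 (adjusted p = 0.0131) and 0.63 (adjusted p = 0.0174). Tsc1, a brake on mTOR complex 1, rose by 0.80 (adjusted p = 0.0181), and Sos2, a Ras activator, by 0.84 (adjusted p = 0.0184). Grb2, the adaptor that brings SOS proteins to the receptor, was lower (log2 fold change −0.57, adjusted p = 0.0237). The list's median was 0.03.

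Of 19 genes that STAT5 is known to induce or repress, a list that also holds the members Il2ra, Cish and Socs3, 3 were called higher and 1 lower. Of all tested genes 8.64% and 5.13% were, 13.8% in either direction. The lower count is at the background, and with so few genes neither count was read as a result about the list. With the gene length offset 2 were called, beside 9.20% of all genes. Bcl2, the survival factor that IL-7 maintains, was 149, 139 and 180 CPM in sgElovl1 and 105, 89.8 and 108 CPM in sgNT (log2 fold change 0.63, adjusted p = 0.0131). Pim1, a serine kinase, rose by 0.78 (adjusted p = 0.0219) and Osm, a cytokine of the IL-6 family, by 0.90 (adjusted p = 0.0165). Nfil3, a transcription factor, was lower at −0.46 (adjusted p = 0.0273). The list's median was 0.07.

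Leaving out replicate 1 or 2 of either group lowered the share of all genes called to between 2.47% and 7.41%, and many of these genes lost their call there while their fold changes stayed near those of all 6 libraries. Over the 6 fits that left out 1 library, Jak2 ran from 0.40 to 0.50, Sos2 from 0.71 to 1.03, Grb2 from −0.64 to −0.39 and Tsc1 from 0.66 to 0.95 on the log2 scale. Jak2, Cbl, Socs5, Sh2b1, Grb2, Sos2, Pik3cd and Pim1 were called without replicate 3 of either group and lost their call when any of the other 4 libraries was left out (adjusted p up to 0.209). Of the 6 fits that left out 1 library, that without sgElovl1 replicate 3 alone called Nfil3 (adjusted p up to 0.133 in the others). Cblb and Osm lost their call without sgElovl1 replicate 2 or sgNT replicate 2 (adjusted p up to 0.0628 and 0.0941), Pik3r1 and Tsc1 without those or sgElovl1 replicate 1 (up to 0.067 and 0.0717), and Bcl2 without sgNT replicate 2 (0.067). With the gene length offset Jak2, Socs5, Cbl, Cblb, Sh2b1, Sos2, Pik3cd, Bcl2 and Nfil3 were not called, while Rictor, Ptpn11, Grb2, Pik3r1, Tsc1, Pim1 and Osm were. Grb2 lost its call with the offset and the block together (adjusted p = 0.0567). Limma on TPM did not call Jak2, Socs5, Ptpn11, Cbl, Grb2, Sos2, Pik3cd or Nfil3 (adjusted p from 0.0517 to 0.17), and it called 0 genes of the lists lower.

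**Figure D5:**
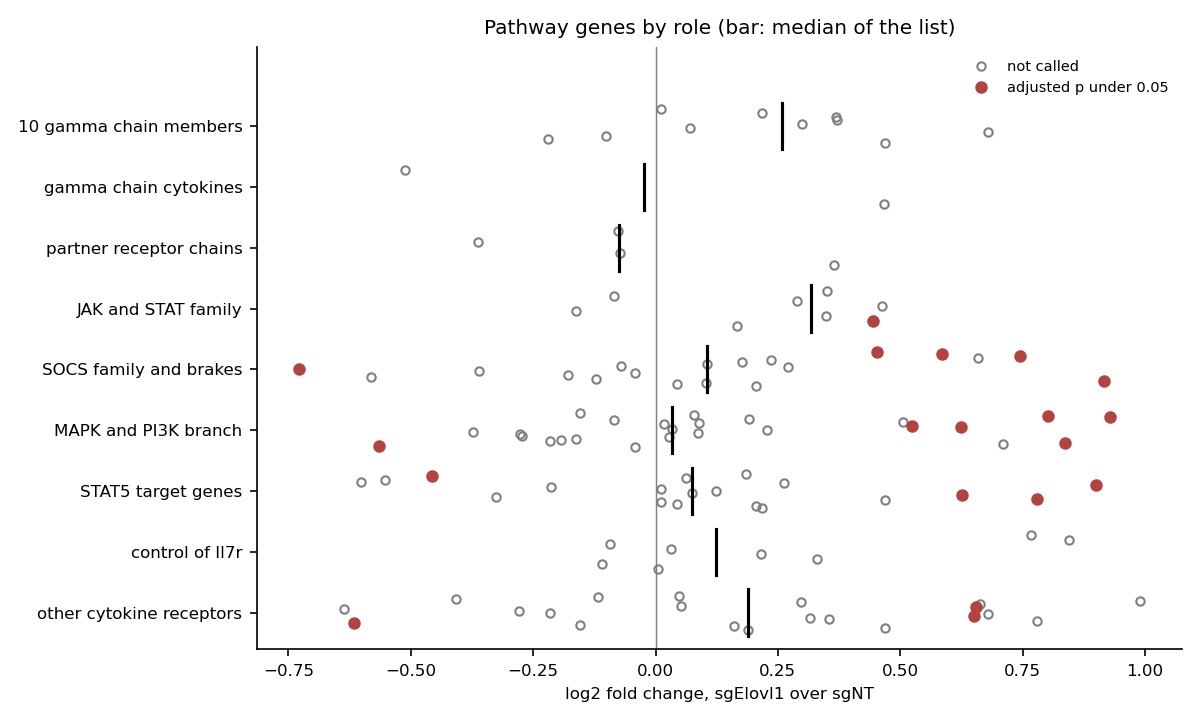
Log2 fold change of sgElovl1 over sgNT (x axis) for each tested gene of the 10 members and of 8 pathway lists, with called genes filled in red and the list median as a bar. The members have a median of 0.26 and no filled point, and the filled points to the right include Rictor at 0.93 and Socs5 at 0.92.

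Of 8 regulators of Il7r transcription, 0 were called by edgeR and 1 had an unadjusted p under 0.05. Of all tested genes 13.8% were called and 32.2% had an unadjusted p under 0.05. With so few genes neither count was read as a result about the list. Runx1, with the smallest p, was 18.4, 15.9 and 8.23 CPM in sgElovl1 and 8.99, 8.26 and 7.74 CPM in sgNT (log2 fold change 0.77, adjusted p = 0.0741). Its sgElovl1 replicate 3 lay within the sgNT range. Ets1, the next by p, was 451, 496 and 519 CPM in sgElovl1 and 440, 455 and 367 CPM in sgNT (log2 fold change 0.22, adjusted p = 0.253), also with overlap. Both are transcription factors needed for T cell development.

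The genes whose log2 CPM followed Stat5b most closely over the 6 libraries, of 12545 compared, were Upf1 (Pearson's r 0.9981), Epb41 (0.9952), Gpc1 (0.9951), Wdr11 (0.9943) and Tyk2 (0.9935). These are the highest values of a large search over 6 points that fall into 2 groups, and are given as a description. Of the 5, Tyk2 is the only one on the pathway lists, as a kinase of the JAK family (log2 fold change 0.35, adjusted p = 0.0722).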

How the data were processed

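The 10 genes, the pathway lists and the tests were chosen with earlier results of these data known. Libraries were pre-amplified (SMARTer), and the submitters' processing notes name STAR 2.7.7a, RSEM 1.3.1, DESeq2 1.36.0 and mm10 (GRCm38). The authors deposited expected counts, the estimated reads per gene, not scaled between libraries, and these were rounded to whole numbers for testing. The deposited TPM, scaled for gene length and library, gave levels between genes, ratios and an alternative test. The deposited FPKM was not used in any result. Deposited gene lengths, in bases, served the length offset and the length trend. They were taken from sgElovl1 replicate 1 and used for every library. Symbols came from GENCODE M21 (55144 of 55471 IDs).

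edgeR 4.0.16 in R 4.3.3 compared 3 sgElovl1 with 3 sgNT libraries (filterByExpr minimum count of 10, TMM, robust quasi-likelihood fit, group only, two-sided). P-values were adjusted by Benjamini-Hochberg over 12546 genes, and genes under 0.05 were called. Fold changes are sgElovl1 over sgNT. P-values measure the spread between libraries. The labels treat mice as replicates, but sgElovl1 replicates 1 and 2 are pools of 2 tumours each. No sgNT library is a pool, so pooling and group cannot be fully told apart. In fits without sgElovl1 replicate 3 every sgElovl1 library is a pool, so pooling and group coincide. In simulated data 66, 62 and 64 of 12321 tested genes were changed by 0.5, 1 and 2 log2, with dispersions from the trend over expression level. The test found 18.2%, 56.5% and 79.7% of these changes. In the real data far more genes were called (13.8%), and the adjustment depends on how many genes change. These rates therefore do not carry over directly to the real comparison. The labels give only replicate numbers. Deviations of same-numbered libraries from their group means correlated at 0.21, 0.24 and 0.41, so the number was also fitted as a block. Replicates 1 and 2 crossed between the groups correlated at 0.11 and 0.17, so mainly replicate 3 stood apart. The block was thus chosen from the same data that it was fitted to.

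Alternatives were RLE normalization, no filter, a minimum count of 50, DESeq2 1.42.0, limma-voom (limma 3.58.1), limma on log2(TPM + 1), the replicate block, a gene length offset (lowess of each library's log2 deviations on length, span 0.3), leaving out replicate 3 of both groups or each library in turn, and, added after seeing the data, the block with the length offset. Named genes were all 10 members, and of each list the called genes, up to 6 by p, or the 2 with the smallest p where none was called. Promoters came from RefSeq (GRCm38.p6).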

Additional observations from a re-analysis of the deposited data

How the results depend on the processing

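The count of called members was 0 in the main test and with RLE normalization, limma-voom, TPM and the length offset with or without the block, 1 with a minimum count of 50 (Stat5b, log2 fold change 0.40) and with the replicate block (Il2ra, 0.48), 2 without a filter (Il2ra 0.48, Stat5b 0.39), 3 with DESeq2 (Il2ra 0.46, Il7r 0.67, Stat5b 0.36) and 6 without replicate 3 of both groups (Il2ra 0.48, Il2rg −0.34, Jak3 0.51, Stat5a 0.59, Stat5b 0.48, Cish 0.54). Leaving out 1 library gave 0 to 4. Over these 6 fits Il2ra ran from 0.32 to 0.63, Il2rg from −0.32 to 0.0005, Il7r from 0.42 to 0.99, Jak3 from 0.18 to 0.44, Stat5a from 0.27 to 0.49, Stat5b from 0.32 to 0.44, Cish from −0.0357 to 0.40 and Socs3 from −0.14 to 0.13. The block changed no member call other than that of Il2ra. Signs turned for Socs3 with the block (−0.005), the length offset (−0.0235) and both (−0.0377), and for Il2rg with the length offset (0.0378) and with both (0.016). All genes called numbered 1727 in the main test, 1085 with TPM, 1138 with block and length offset, 3986 without replicate 3 of both groups, and 321 to 2718 leaving out 1 library. The pathway lists together, without the members, held 19 called of 101 tested genes (13.8% of all genes were called), 29 with DESeq2 (19.8%), 12 with TPM (8.65%), 10 with the length offset (9.20%), 11 with the block and offset (9.07%), 46 without replicate 3 of both groups (31.5%), and 2 to 32 leaving out 1 library (2.47% to 21.1%). Without a filter the median of all genes shifted to 0.12, and the members' median was 0.28. The cause of these differences was not tested.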

Other observations

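Receptors for other cytokines were read beside the gamma chain members. Of 22 listed, 21 were tested, 2 were called higher and 1 lower in sgElovl1, a count near the background of 13.8% of all tested genes (8.64% higher and 5.13% lower), and their median log2 fold change was 0.19. Il18rap, the accessory chain of the IL-18 receptor, was 119, 105 and 91.7 CPM in sgElovl1 and 65.9, 66.5 and 68.9 CPM in sgNT (log2 fold change 0.65, SE 0.12, adjusted p = 0.00811). Ifnar1, a chain of the type I interferon receptor, was 206, 201 and 235 CPM in sgElovl1 and 167, 132 and 110 CPM in sgNT (0.66, SE 0.15, adjusted p = 0.0187). Il12rb1, which the IL-12 and IL-23 receptors share, was 29.4, 33.0 and 41.2 CPM in sgElovl1 and 57.4, 46.9 and 54.6 CPM in sgNT (−0.62, SE 0.14, adjusted p = 0.0189). The groups did not overlap for 10 of the 21 tested genes, these 3 among them, beside 37.1% of all tested genes. These 3 were named because they were called, so their separation is no further support. Over the 6 fits that left out 1 library the log2 fold changes stayed between 0.55 and 0.74 (Il18rap), 0.53 and 0.84 (Ifnar1) and −0.76 and −0.51 (Il12rb1), while the share of all genes called fell to between 2.47% and 7.41% without replicate 1 or 2 of either group. Il18rap lost its call without sgElovl1 replicate 2 or sgNT replicate 2 (adjusted p up to 0.0532) and with the length offset (0.34, adjusted p = 0.0646). Ifnar1 lost it without sgElovl1 replicate 1, sgElovl1 replicate 2 or sgNT replicate 2 (adjusted p up to 0.0914), and Il12rb1 when any library other than a replicate 3 was left out (adjusted p up to 0.112). Limma on TPM did not call Il12rb1 either (adjusted p = 0.119).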
